A study of Arabidopsis thaliana with 4 samples.

Results

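The wild-type funiculus transcriptome at stage 17 is described here from the 2 wild-type libraries among the 4 libraries of the series, across all 37051 loci of the deposited count table. The members were chosen by their sample labels alone (genotype wild-type, Columbia ecotype), and the contrast with the mutant is not described. The other 2 libraries come from seedstick (stk) plants, whose allele the labels do not name, and their values stand beside a result only where they show the same transcript in further libraries. Growth was at 22 °C for both genotypes, with days of 16 h light and nights of 8 h, and polyadenylated RNA was captured from 100 funiculi per sample, so that each library is a pool of funiculi. The labels call the 2 samples of a genotype biological replicates, with no word on shared plants or days.

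The funiculus is the stalk that joins a seed to the placenta of the fruit. Its vascular strand brings sugars, amino acids, water and minerals from the mother plant towards the seed, which has no vascular connection of its own to the mother, so unloading from the phloem and export by membrane carriers are steps in seed filling. The stalk is green, is covered by a cuticle, elongates after fertilisation and carries at its distal end the zone where the ripe seed detaches. STK, a MADS-box factor of ovule identity, is needed for that detachment.

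The libraries held 5757066 counts in replicate 1 and 10229588 counts in replicate 2, and the stk libraries 4033589 and 12099218. Levels are given as CPM, the counts of a locus per 1000000 counts of its library, for wild-type replicate 1 and then replicate 2. A value of 10 CPM corresponds to 58 counts in replicate 1 and 103 counts in replicate 2, and 3 counts, the limit that a count of 0 allows, to 0.521 and 0.293 CPM. Such limits and all intervals below cover counting error only. With 2 libraries of one group there is no test of a difference between them, and no p-value is given.

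Of the 37051 loci, 21878 had a count in either wild-type library and 17348 in both. At least 10 CPM in both libraries was reached by 11715 loci, which is 31.6% of all loci and 42.3% of the 27444 protein-coding loci. These 11715 loci took 95.2% of the counts of replicate 1 and 93.6% of those of replicate 2. A further 954 loci reached 10 CPM in replicate 1 alone and 1912 in replicate 2 alone. Protein-coding loci held 98.9% of the counts in each library. At the edge of the threshold, AT1G05640 stood just inside at 14.2 and 10.1 CPM, and AT3G17670 just outside at 11.5 and 9.97 CPM. Of the 11715 loci, 10079 (86.0%) also had at least 10 CPM in both stk libraries.

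Ovule identity genes were read in both libraries, which is what the funiculus label calls for. STK stood at 361 and 591 CPM, and at 228 and 327 CPM in the stk libraries. AT4G09950 overlaps STK on the other strand, and reads of the shared stretch cannot be assigned with this unstranded kit. The length of that stretch was not measured. BEL1, a homeodomain factor of integument identity, stood at 99.5 and 70.6 CPM. CYP78A9, a cytochrome P450 that promotes seed and fruit growth, stood at 51.9 and 87.2 CPM. BEL1 lay higher in replicate 1 and the other two higher in replicate 2. NTT, a zinc finger factor of the transmitting tract and replum, stood at 39.1 and 34.8 CPM. The bHLH gene HEC3 stood at 28.3 and 10.3 CPM and the MADS-box gene SHP2 at 27.6 and 16.7 CPM. In all, 7 of the 11 ovule identity markers had at least 10 CPM in both libraries. SHP1, the close relative of SHP2, was uneven at 12.5 and 100.4 CPM. The carpel identity gene AG stood at 8.51 and 11.9 CPM, just under and just over the threshold. ANT, which promotes cell proliferation in ovule primordia, was read in replicate 2 alone (0 and 16.7 CPM). INO, a factor of the outer integument (0 and 0.782 CPM), and TT16, a factor of the endothelium (0 CPM in both), were at or near 0.

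Markers of photosynthetic cells, surface cells and phloem were abundant, and those of seed tissues were low. All 9 markers of green parenchyma had at least 10 CPM in both libraries, with a summed level of 10655 and 5222 CPM. Of 10 markers of epidermis and cuticle, 9 did, with a sum of 2776 and 2371 CPM, and the protodermal factor ATML1 stood at 76.6 and 93.6 CPM. Phloem markers numbered 7 of 10 and summed to 2636 and 622 CPM. The other 3 were under 10 CPM in both libraries and higher in replicate 2. They were CalS7 (1.74 and 6.75 CPM), SEOR1 (2.61 and 5.28 CPM) and NAC086 (0.695 and 6.75 CPM). The xylem list had 3 of 10 members at that level and summed to 269.6 and 94.2 CPM. The phloem, xylem and green sums were higher in replicate 1. In bulk samples such as these, fewer cells of a type and less RNA per cell cannot be told apart.

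Endosperm markers had 0 of 10 members at 10 CPM in both libraries and summed to 17.5 and 10.1 CPM, with PHE1 and MEA at 0 in both. Seed coat markers had 1 of 10, MUM4, an enzyme of mucilage synthesis at 31.3 and 79.2 CPM, and TT10 and MYB5 were at 0 in both. Embryo and seed filling markers had 0 of 13 and summed to 186 and 1.86 CPM. That sum came almost wholly from replicate 1, where the seed storage protein genes CRU3 and CRA1 stood at 91.9 and 47.1 CPM against 0.0978 and 0.782 CPM in replicate 2. The embryo regulators LEC1, LEC2 and ABI3 were at 0 in both. Guard cell markers had 2 of 7, with the potassium channel gene KAT1 at 25.01 and 166 CPM and FMA, which specifies guard cells, at 0 and 1.17 CPM. Markers of pollen had 3 of 9, with the pectin methylesterase gene VGD1 at 265 and 276 CPM and HAP2, a gene of sperm cells, at 0 in both. Valve margin and replum markers had 3 of 9, with the replum factor RPL at 73.0 and 43.8 CPM and the valve margin factor IND at 0 in both. The part of these other cell types in the results below was not tested.

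**Figure D1:**
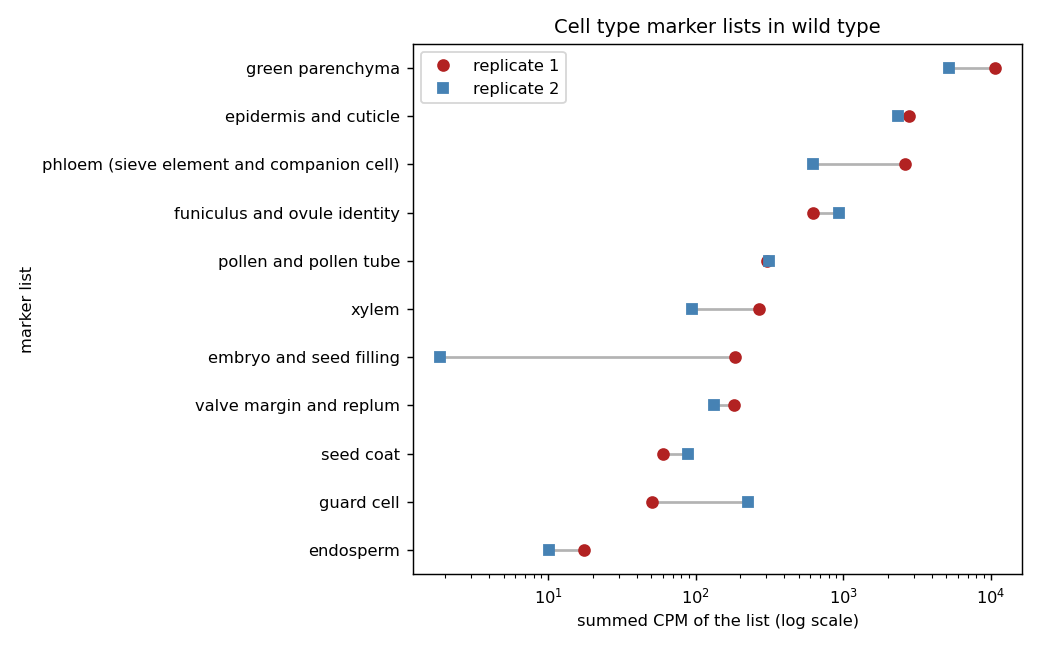
Summed CPM of each cell type marker list (log scale) in wild-type replicate 1 (circles) and replicate 2 (squares), one row per list. Green parenchyma lies highest at 10655 and 5222 CPM, and embryo and seed filling shows the widest gap at 186 and 1.86 CPM.

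The most abundant transcripts were those of surface lipid transfer, metal binding, photosynthesis and polyamine synthesis. LTP3, a lipid transfer protein, ranked first in both libraries at 7240.1 and 6473 CPM, and first per length as well, at 8916 CPM per kb of its longest exonic transcript (mean of the 2 libraries). MT2B, a metallothionein that binds copper and zinc, stood at 5785 and 1489.9 CPM. RBCS1A, a small subunit of Rubisco, stood at 3858 and 1765 CPM. CAB1, a chlorophyll-binding protein of the light-harvesting antenna, stood at 3606 and 1645 CPM. Each of these was higher in replicate 1, LTP3 by a ratio of 1.12 and MT2B by 3.88. SAMDC, which makes the aminopropyl donor for polyamines, stood at 3749 and 1598 CPM. ADC2, the arginine decarboxylase at the start of polyamine synthesis, stood at 2171 and 1857 CPM. UBQ11 and UBQ10, which encode polyubiquitin, stood at 2671 and 1963 CPM and at 1756 and 809.6 CPM. Counts of near-identical family members depend on how reads that map to several places were treated, which is not given in the sources used here.

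FT, the mobile protein florigen that is made in phloem companion cells, was among the 10 loci with the highest mean, at 2727 and 656 CPM. It ranked 7th of all loci in replicate 1 and 105th in replicate 2. In the stk libraries it stood at 1911 and 902 CPM. FT transcripts were abundant in all 4 libraries. SNG1, which makes the ultraviolet-screening sinapoylmalate, stood at 2458 and 1085 CPM. GSR2, a cytosolic glutamine synthetase, stood at 2099 and 871 CPM. The glycolytic enzyme gene GAPC2 stood at 2011 and 1125 CPM, and CCH, a copper chaperone, at 1793 and 664 CPM. All 4 were higher in replicate 1, by a ratio of 1.79 or more.

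The rest of the leading 25 included genes of hormone and stress responses and several of unknown function. IAA9, a repressor of auxin responses, stood at 1369 and 1595 CPM. ACS6, which makes the ethylene precursor, stood at 1154 and 1297 CPM. MLP28, of the major latex protein family, stood at 1273 and 1169.8 CPM, and SRC2, a cold-responsive C2-domain protein, at 1481 and 917 CPM. The 2 libraries were within 2-fold for these 4 loci. AT3G57450, an uncharacterized protein, stood at 1089 and 1481 CPM. AT1G18740, a DUF793 protein, stood at 1094 and 1296 CPM and AT4G29780, annotated as a nuclease, at 1347 and 1101 CPM. AT4G32020, a serine/arginine repetitive matrix-like protein, stood at 1499.9 and 1164 CPM, and AT5G54940, of the SUI1 translation initiation factor family, at 1666 and 789 CPM. AT1G79245, a transcribed pseudogene, drew as many reads as these, at 1792 and 1150.4 CPM. Its transcript is long, and it ranked 253rd per length.

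The 25 loci together held 6.27% of the counts of replicate 1 and 3.46% of those of replicate 2 (mean 4.87% ± 1.98 SD, n = 2). Of the 25, 21 were higher in replicate 1 and 13 were within 2-fold. The widest gaps were those of LTP4, a close relative of LTP3, at 4612 and 286 CPM (ratio 16.1, 95% Clopper-Pearson counting interval 15.5 to 16.7), of the peroxidase PRXR1 at 2395 and 391 CPM (ratio 6.13, 5.92 to 6.35) and of FT (ratio 4.16, 4.04 to 4.28). These 3 loci were at least 4-fold apart. Ranked in each library by itself, 11 loci were among the 25 leading loci of both. Ranked per length, 13 of the 25 stayed among the first 25, and MT2A, NDPK1, AGP15 and the late embryogenesis abundant protein gene AT2G23120 were among those that entered, with 1197, 1138, 992 and 1016 CPM per kb (means of the 2 libraries).

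**Figure D2:**
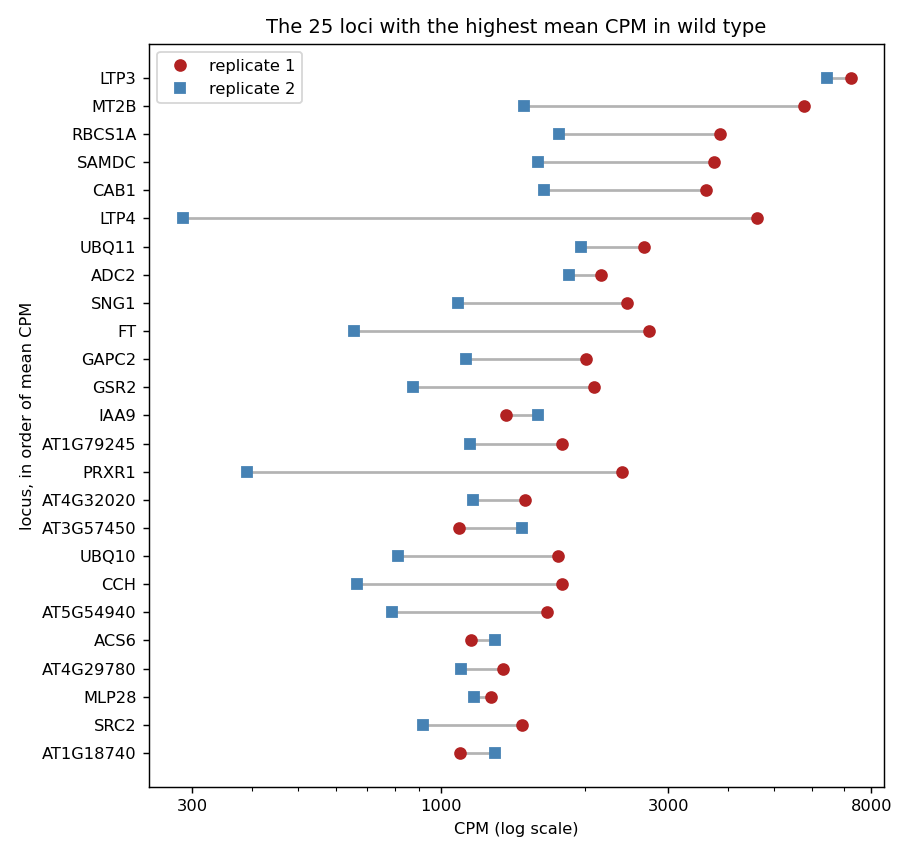
CPM (log scale) of the 25 loci with the highest mean CPM in wild type, in replicate 1 (circles) and replicate 2 (squares), in order of the mean. LTP3 lies at 7240 and 6473 CPM, and LTP4 spans the widest gap, at 4612 and 286 CPM.

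Transporter, wall, hormone and regulator genes were followed in 28 lists. At least 10 CPM in both libraries was reached by 90 of 198 transporter genes (45.5%), 95 of 210 wall genes (45.2%), 160 of 272 hormone genes (58.8%) and 94 of 233 regulators (40.3%), beside 42.3% of all protein-coding loci. The share for transporters, wall genes and regulators was near that background. Between single lists it ran from 2 of 17 laccases to 28 of 33 jasmonate genes.

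**Figure D3:**
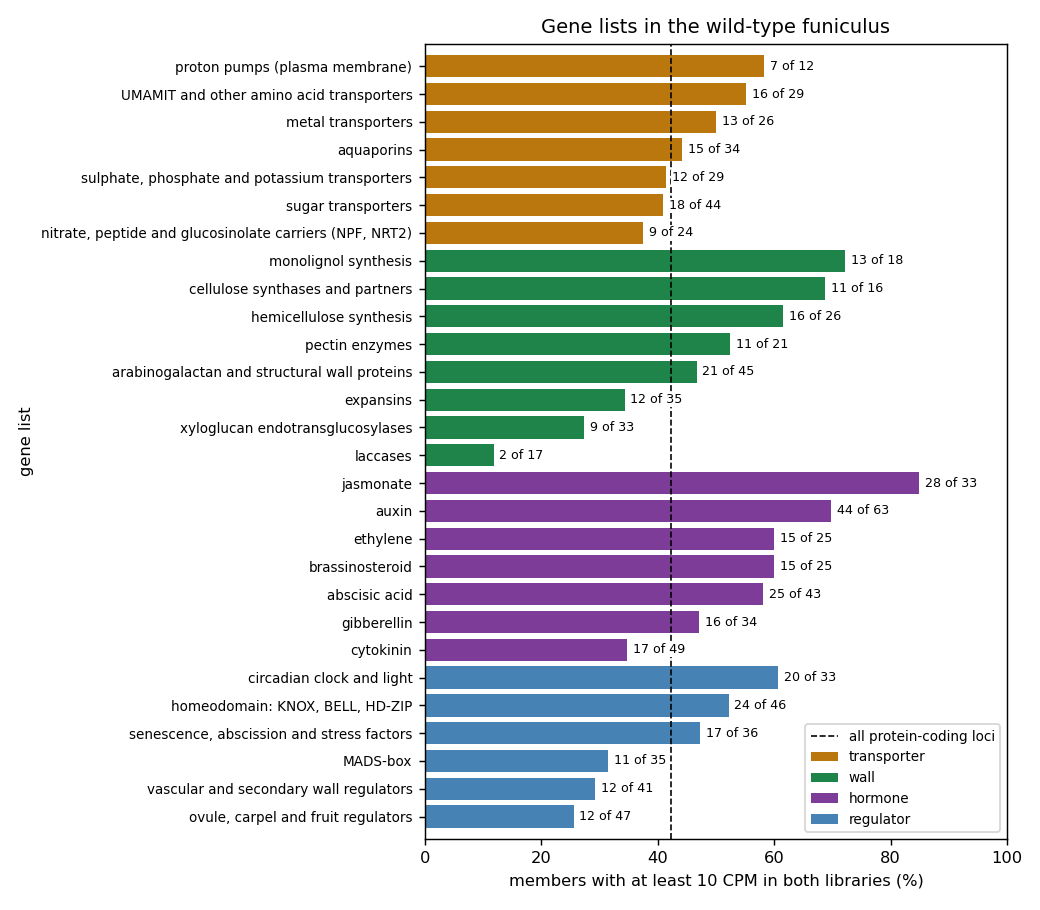
Percent of members of each of 28 gene lists with at least 10 CPM in both wild-type libraries, coloured by class, with the counts beside the bars. The dashed line marks the 42.3% of all protein-coding loci, and the jasmonate list reaches the highest share with 28 of 33 members.

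Sugar carriers of phloem and of seed supply were read at 10 CPM or more in both libraries for 18 of 44 genes. SUC2, the proton-sucrose symporter of companion cells, stood at 809.6 and 161 CPM. SUC1, another sucrose symporter, lay the other way at 69.7 and 392 CPM. SWEET4, a hexose and sucrose facilitator, was even at 169.7 and 195 CPM. SWEET11, which releases sucrose from phloem parenchyma, stood at 331 and 10.3 CPM. Per length SUC2 led the list with 395 and 78.5 CPM per kb. SWEET12, the partner of SWEET11, was singled out after seeing its values of 137 and 20.8 CPM. Among sugar carriers 9 of 23 genes with 10 CPM in either library were at least 4-fold apart, 5 of them higher in replicate 1, where 11.2% of all 14581 such loci were.

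Amino acid carriers reached the level in 16 of 29 cases. AAP2, an amino acid permease of the phloem that moves amino acids from xylem to phloem, stood at 1929 and 148 CPM. AAP5, a permease of broad specificity, stood at 564 and 479 CPM. The exporter UMAMIT14, known for moving amino acids out of the phloem and into seeds, stood at 248 and 139 CPM. SIAR1, a related bidirectional carrier, stood at 223 and 88.7 CPM. All 4 were higher in replicate 1, AAP2 by a ratio of 13.1 and AAP5 by 1.18. Of 19 members with 10 CPM in either library, 4 were at least 4-fold higher in replicate 1 and 0 in replicate 2, beside 3.63% and 7.61% of all 14581 such loci.

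Aquaporins, the water channels of membranes, reached the level in 15 of 34 cases. PIP1B stood at 888 and 574 CPM, and PIP3 stood at 321 and 748 CPM. PIP1;4 stood at 309 and 272 CPM and PIP2A at 395 and 129 CPM. These are plasma membrane channels with close paralogs, and they did not share a direction between the libraries. The plasma membrane proton pumps, which energise uptake by symporters, were carried by a few genes. HA1 stood at 905 and 821 CPM and HA3, the pump of companion cells, at 818 and 216 CPM. AVP1, the vacuolar proton pyrophosphatase kept in the same list, stood at 1016 and 655 CPM. HA8, HA11, HA2 and HA5 stood lower, at 97.8 and 121 CPM, 66.0 and 69.9 CPM, 50.03 and 31.5 CPM and 36.5 and 25.6 CPM. That made 7 of 12 pump genes at the level. Under 10 CPM in both libraries were HA7 (3.995 and 7.14 CPM), AHA10 (7.64 and 3.03 CPM), HA4 (5.04 and 3.13 CPM), HA9 (0 and 0.293 CPM) and HA6 (0 CPM in both).

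Carriers of metals reached the level in 13 of 26 cases. Of 19 members with 10 CPM in either library, 6 were at least 4-fold higher in replicate 1 and 0 in replicate 2. The shares of all 14581 such loci were 3.63% and 7.61%. NRAMP1, a manganese and iron importer, stood at 368 and 147 CPM. OPT3, which loads iron into the phloem, stood at 227 and 50.1 CPM. HMA4, a zinc exporter of vascular cells, stood at 159 and 45.8 CPM, and NRAMP4, which releases iron from vacuoles, at 81.6 and 31.9 CPM. All 4 were more than 2-fold higher in replicate 1.

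Glucosinolate, nitrate and peptide carriers reached the level in 9 of 24 cases. GTR1 and GTR2, the pair of importers that load glucosinolates into the phloem for transport to seeds, stood at 331 and 371 CPM and at 461 and 100.1 CPM. GTR1 was even and GTR2 was 4.61 times higher in replicate 1. AT1G52190 stood at 129 and 277 CPM and the nitrate transporter NRT1:2 at 113 and 63.4 CPM. Sulphate, phosphate and potassium carriers reached it in 12 of 29 cases. PHO1;H1, a phosphate exporter, stood at 377 and 246 CPM. SULTR2;1, a sulphate transporter of vascular tissue that acts in supply to seeds, stood at 275 and 31.4 CPM, and SULTR4;2, which empties vacuolar sulphate, at 83.5 and 109 CPM. KAT1 was the fourth named carrier, and its relative KAT2, another potassium channel, was singled out after seeing its values of 7.12 and 179 CPM. Over all 7 transporter lists, 34 of 118 genes with 10 CPM in either library were at least 4-fold apart (28.8%), 26 of them higher in replicate 1, beside 11.2% of all such loci. Of the 118 genes, 28 had 10 CPM in 1 library alone and so entered through the library where they were high, as did 2866 of all 14581 loci.

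Among the wall lists, expansins summed to 2876 and 1928 CPM and xyloglucan endotransglucosylases to 1485 and 2124 CPM. The highest sum was that of arabinogalactan and structural proteins, at 3993 and 4618 CPM. EXLB1, of the expansin-like group, was read at 1541 and 607 CPM. EXPB3, a beta-expansin, stood at 372 and 165 CPM, while EXPA6 and EXLA2 stood at 133 and 258 CPM and 157 and 207 CPM. Expansins loosen walls during growth, and 12 of 35 reached the level. TCH4, a touch-induced xyloglucan endotransglucosylase, stood at 735 and 869.7 CPM. XTH9, of the same family, stood at 20.0 and 539 CPM, which is 27.0 times higher in replicate 2. XTH24 stood at 160.2 and 290.1 CPM and EXGT-A3 at 228 and 149.9 CPM. Of the 33 enzymes of this family, which cut and rejoin xyloglucan, 9 reached the level, and TCH4 led per length with 462 and 547 CPM per kb.

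Synthesis of cellulose was read at the level for 11 of 16 genes. POM1, a chitinase-like protein needed for cellulose assembly, stood at 568 and 326 CPM. CEV1, the CESA3 subunit of the primary wall complex, stood at 310.2 and 248 CPM, and CESA1, its partner, at 226 and 263 CPM. GH9A1, the KORRIGAN endoglucanase, stood at 299 and 144 CPM. GH9A1 differed most of these 4 genes, by a ratio of 2.08. CESA4, a subunit of the secondary wall complex, was singled out after seeing its values of 74.2 and 25.3 CPM. Hemicellulose genes reached the level in 16 of 26 cases. The xyloglucan xylosyltransferase gene XT1 stood at 239 and 245 CPM and the glucan synthase gene CSLC04 at 189 and 196 CPM. CSLA02, a glucomannan synthase, stood at 137 and 159.6 CPM, and RWA2, which acetylates wall polymers, at 138 and 94.6 CPM. XT1 and CSLC04 were even between the libraries, with ratios of 0.975 and 0.967.

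Pectin enzymes reached the level in 11 of 21 cases. Of the 14 with 10 CPM in either library, 6 were at least 4-fold apart, beside 11.2% of all such loci. Of these 6, 5 were higher in replicate 1 and 1 in replicate 2. BXL1, a beta-xylosidase and arabinosidase that trims pectin side chains, stood at 638 and 113 CPM. PME5, a pectin methylesterase, lay the other way at 22.4 and 462 CPM. PME1 stood at 209 and 261 CPM and the galactosidase gene BGAL1 at 171 and 238 CPM. BXL1 was 5.67 times higher in replicate 1, and PME5 20.6 times higher in replicate 2. Arabinogalactan and structural proteins reached the level in 21 of 45 cases. AGP15 stood at 866 and 1185 CPM and AGP1 at 664 and 707 CPM, both small arabinogalactan proteins of the cell surface. PRP2, a proline-rich protein, stood at 757 and 97.7 CPM, and the glycine-rich protein gene GRP5 at 363 and 427 CPM.

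Monolignol synthesis, which feeds lignin and soluble phenolics, reached the level in 13 of 18 cases. HCT stood at 329 and 166 CPM, CCoAOMT1 at 263 and 216 CPM, PAL2 at 287 and 123 CPM and 4CL1 at 269.9 and 126 CPM. All 4 were higher in replicate 1. Of the laccases, which polymerise lignin, 2 of 17 reached the level, LAC10 at 11.99 and 18.6 CPM and IRX12 at 20.1 and 10.4 CPM. Over all 8 wall lists, 29 of 124 genes with 10 CPM in either library were at least 4-fold apart (23.4%), 16 higher in replicate 1 and 13 higher in replicate 2, beside 11.2% of all such loci. Of the 124 genes, 29 had 10 CPM in 1 library alone, as did 2866 of all 14581 loci.

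Jasmonate was the hormone with the largest share of genes at the level, 28 of 33. OPCL1, which activates jasmonate precursors for shortening, stood at 795 and 1172 CPM. LOX3 and LOX4, lipoxygenases at the start of the pathway, stood at 813 and 556 CPM and at 764 and 542 CPM. JAZ6, a repressor of jasmonate responses that is itself induced by them, stood at 556 and 446 CPM. The 4 genes were within 2-fold between the libraries. Of 30 members with 10 CPM in either library, 1 was at least 4-fold apart in each direction, beside 11.2% of all such loci in either direction.

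Auxin genes reached the level in 44 of 63 cases. Beside IAA9, the repressors IAA8 and IAA16 stood at 484 and 1079.6 CPM and 527 and 522 CPM. GH3.3, which conjugates auxin and jasmonate precursors to amino acids, stood at 1153 and 854 CPM. Of 51 auxin genes with 10 CPM in either library, 6 were at least 4-fold higher in replicate 2 and 0 in replicate 1. With TMM or DESeq2 scaling these counts were 5 and 1. The share apart, 11.8%, was near the 11.2% of all such loci. Ethylene genes reached the level in 15 of 25 cases and none was 4-fold apart. ACS2, a synthesis enzyme related to ACS6, stood at 297 and 251 CPM and EBF1, which directs the degradation of EIN3, at 248 and 141 CPM.

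Abscisic acid genes reached the level in 25 of 43 cases. PP2CA, a phosphatase that restrains the response, stood at 351 and 328 CPM. ABF3, a transcription factor of the response, stood at 267 and 274 CPM, and CYP707A3, which degrades the hormone, at 259 and 209 CPM. ABCG25, an exporter of abscisic acid from vascular cells, stood at 183 and 80.9 CPM. The first 3 differed by ratios of 1.07, 0.972 and 1.24 only. Brassinosteroid genes reached the level in 15 of 25 cases. The synthesis genes BR6OX2, ROT3, DWF1 and CYP90D1 stood at 334 and 248 CPM, 271 and 288 CPM, 208 and 278 CPM and 107 and 148 CPM, all within 2-fold.

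Cytokinin genes reached the level in 17 of 49 cases. LOG1, which releases active cytokinin, stood at 873 and 236 CPM. ABCG14, which loads cytokinin into the xylem, stood at 422 and 119 CPM. The receptor gene HK3 stood at 80.4 and 90.4 CPM and the phosphotransfer protein gene AHP2 at 48.8 and 120.0 CPM. LOG1 and ABCG14 were both over 3-fold higher in replicate 1, and HK3 was even. Gibberellin genes reached the level in 16 of 34 cases. GASA4, a gibberellin-responsive peptide, stood at 55.6 and 657 CPM. GA20OX2, a synthesis enzyme, stood at 104 and 429.9 CPM. The growth repressors of the DELLA class RGL1 and RGA1 stood at 106 and 217 CPM and 168 and 123 CPM. GASA4 was 11.8 times and GA20OX2 4.13 times higher in replicate 2. Over all 7 hormone lists, 25 of 192 genes with 10 CPM in either library were at least 4-fold apart (13.0%), near the 11.2% of all such loci.

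MADS-box factors reached the level in 11 of 35 cases. STK led them per length, with 217 and 355 CPM per kb. The floral cofactors SEP2 and SEP1 stood at 375 and 338 CPM and at 369 and 240.2 CPM. AGL31, a repressor of flowering, stood at 143 and 211 CPM. STK, SEP2, SEP1 and AGL31 were within 2-fold between the libraries. Ovule, carpel and fruit regulators reached the level in 12 of 47 cases, led by ARF8, an auxin response factor that restrains fruit growth, at 148 and 179 CPM. The corepressor gene LUG stood at 83.2 and 88.5 CPM.

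Homeodomain factors reached the level in 24 of 46 cases. HAT2, an auxin-responsive factor, stood at 304 and 315 CPM. PHV, which specifies the adaxial side of organs and patterns vascular tissue, stood at 325 and 226 CPM. BLH1 stood at 327 and 119.9 CPM and HB6, a factor of abscisic acid responses, at 143 and 187 CPM. Vascular and secondary wall regulators reached it in 12 of 41 cases. OBP2, a DOF factor of phloem that affects indole glucosinolates, stood at 196 and 203 CPM, and LHW, a bHLH factor of vascular cell number, at 78.2 and 99.2 CPM. APL, which specifies phloem identity, stood at 109.6 and 65.0 CPM, and PXY, the receptor kinase of vascular stem cells, at 78.9 and 91.4 CPM. These 4 genes were within 2-fold between the libraries.

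Clock genes reached the level in 20 of 33 cases. The morning factors LHY and CCA1 stood at 544 and 196 CPM and at 481 and 107 CPM. RVE8, a morning activator, stood at 201 and 93.4 CPM. PRR7, which represses the morning factors later in the day, was even at 141 and 144 CPM. LHY was 2.78 times and CCA1 4.48 times higher in replicate 1, and the labels give no time of collection. Senescence and stress factors reached the level in 17 of 36 cases. WRKY40 and WRKY18, defence regulators, stood at 972 and 856 CPM and at 437 and 540.0 CPM. STZ, a zinc finger repressor of stress responses, stood at 571 and 333 CPM, and WRKY33 at 277 and 276 CPM. Over the 6 regulator lists, 16 of 117 genes with 10 CPM in either library were at least 4-fold apart (13.7%), near the 11.2% of all such loci.

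The 2 libraries agreed within 2-fold for most transcripts. Of the 11715 loci with 10 CPM in both, 9336 (79.7%) were within 2-fold. The median absolute log2 ratio was 0.49, a 1.40-fold difference, and the median signed log2 ratio of replicate 1 over replicate 2 was -0.10. For 75.0% of these loci the counting interval of the ratio excluded 1, so the spread between the libraries was wider than counting error. Across these loci Pearson's r of log2 CPM was 0.798 and Spearman's rho 0.759, as a description over loci, which share their library. Scaling by TMM shifted the median log2 ratio by 0.11, and DESeq2 size factors by 0.13.

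The loci with the closest values were of varied function. Of loci with at least 100 CPM in both libraries, the closest was cICDH, the cytosolic isocitrate dehydrogenase, at 340.1 and 340.1 CPM (95% counting interval of the ratio 0.946 to 1.06). CLPR4, a subunit of the plastid protease, stood at 108 and 108 CPM, and HOT5, which removes nitrosoglutathione, at 159 and 159 CPM. SCPL49, a serine carboxypeptidase-like protein, stood at 107 and 107 CPM. The filament-like protein gene AT1G19835 stood at 519 and 517 CPM, the calcium-binding EF-hand gene AT3G10300 at 277 and 276 CPM and AT1G19210, a DNA-binding protein, at 309.7 and 310.4 CPM. The other loci of the closest 12 were AT1G74840 (122 and 122 CPM), AT5G09850 (141 and 141 CPM), AT5G48655 (157 and 157 CPM), AT2G29510 (122 and 123 CPM) and AT2G05310 (101 and 102 CPM). All 12 were chosen for this closeness, so their ratios are a description.

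Of the 14581 loci with 10 CPM in either library, 1640 (11.2%) were at least 4-fold apart, with counts under 3 raised to 3 so that a 0 gives a lower bound. Replicate 1 was higher for 530 of them (3.63%) and replicate 2 for 1110 (7.61%). The counting interval lay wholly past 4-fold for 1126 (7.72%). Replicate 1 had no counts at 238 of the 1640 loci, and replicate 2 at 28. Of the 1048 loci with means under 10 CPM, which enter only through the library where they are high, 520 (49.6%) were apart. Of those with means of 10 to 30 CPM, 711 of 5238 (13.6%) were, 547 of them higher in replicate 2. Between 30 and 100 CPM the share was 4.82%, with 146 loci higher in replicate 1 and 147 in replicate 2. From 300 to 1000 CPM, 25 of 405 were apart, 20 of them higher in replicate 1, and the 4 of 41 that were apart above 1000 CPM were higher there too. Replicate 2 was the deeper library, and with its counts thinned to the total of replicate 1, 1662 loci were at least 4-fold apart.

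**Figure D4:**
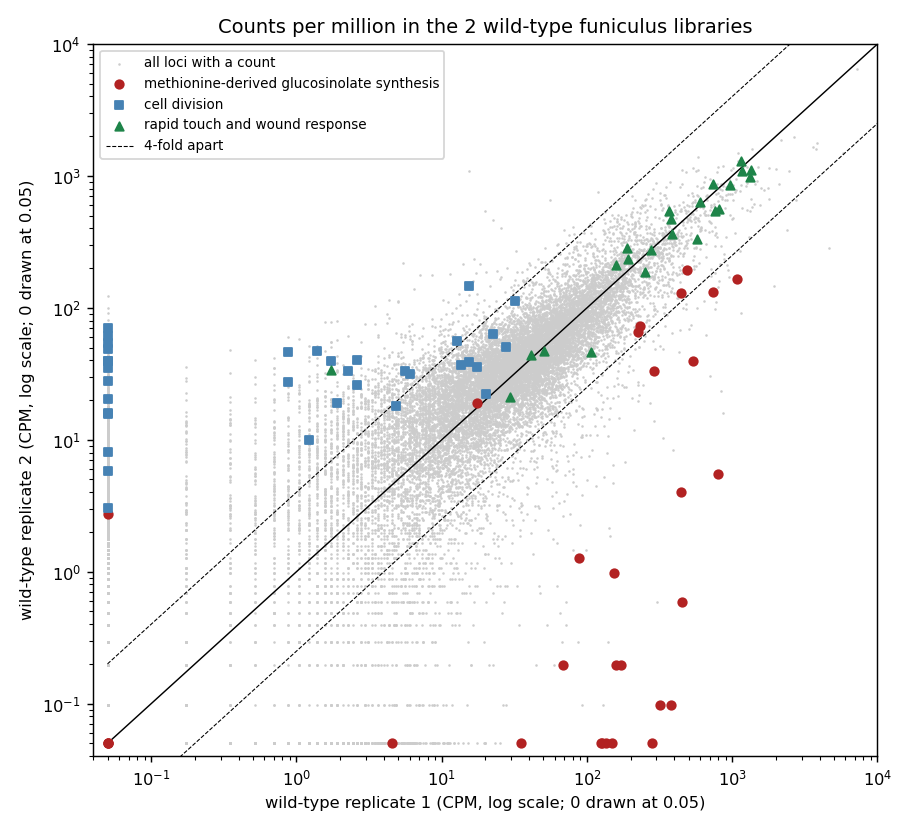
CPM of every locus with a count in wild-type replicate 1 (x axis) against replicate 2 (y axis), both on log scales with 0 drawn at 0.05. Circles (methionine-derived glucosinolate synthesis) lie mostly to the lower right, squares (cell division) mostly to the upper left, and triangles (touch and wound response) mostly along the diagonal.

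The loci furthest apart in favour of replicate 1 were mostly genes of one pathway, the synthesis of glucosinolates from methionine. These sulphur-rich defence compounds of the cabbage order are built by lengthening the side chain of methionine, making the core structure, and modifying the chain, and they accumulate in seeds. Of the 12 loci with the largest ratio, 8 belong to it, and the list of 30 pathway genes used below was drawn up after those values were seen. MAM1, which condenses the lengthening unit, stood at 319 and 0.0978 CPM (ratio 3266, 95% counting interval 585 to 129065). IPMI2, the isomerase subunit of the next step, stood at 381 and 0.0978 CPM (3900, 699 to 154121). IMD1, the dehydrogenase that follows, stood at 448 and 0.587 CPM (764, 351 to 2085). In replicate 2 these enzymes were at 1, 1 and 6 counts, against 1838, 2195 and 2581 in replicate 1.

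Other steps ranged widely. BCAT4, which starts the lengthening, stood at 134 and 0 CPM, at least 458-fold higher in replicate 1 against the 3-count limit. IMS2, another condensing enzyme, stood at 149 and 0 CPM, at least 506-fold higher. BAT5, the plastid carrier of the intermediates, stood at 172 and 0.196 CPM (ratio 879, 243 to 7266). Of the core enzymes, CYP79F1, which makes the aldoxime, stood at 158 and 0.196 CPM (ratio 806, 222 to 6664), and CYP83A1, which oxidises it, at 279 and 0 CPM, at least 953-fold higher. Gaps were smaller for the core genes SOT18 (ratio 8.74), GSTU20 (6.44) and GGP1 (3.42), for the side-chain genes IIL1 (5.62) and BCAT3 (3.18) and for FMO GS-OX4 (2.51). The remaining 4 of the 12 loci were AK3, an aspartate kinase on the way to methionine, at 169 and 0.196 CPM, DJ1F at 302 and 0.587 CPM, the selenium-binding protein gene SBP2 at 139 and 0.293 CPM and the uncharacterized AT5G10946 at 128 and 0.0978 CPM.

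Across the whole pathway, 25 of 30 genes had 10 CPM in either library, and 20 of these were at least 4-fold higher in replicate 1 and 0 in replicate 2, beside 3.63% and 7.61% of all loci. Their median log2 ratio was 7.18, beside -0.18 over all 14581 loci. Both medians rest on counts under 3 raised to 3. Of the 25 genes, 16 had 10 CPM in 1 library alone and so entered through the library where they were high. The other 9 had a median log2 ratio of 1.77, beside -0.10 over all loci with 10 CPM in both libraries. MYB28, the transcription factor that switches the pathway on, stood at 534 and 39.6 CPM, a ratio of 13.5. AOP3, which modifies the finished chain, stood at 446 and 4.01 CPM, while its neighbour in function AOP2 stood at 0 and 2.74 CPM. MYB29 and MYB76, relatives of MYB28, were at 0 in both. FMO GS-OX5, which oxidises the chain, was even at 17.4 and 18.9 CPM. SUR1, which also serves the indole branch, stood at 225 and 65.9 CPM.

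In the stk libraries the summed level of the pathway lay between those of the 2 wild-type libraries. Its 30 genes summed to 7925 and 869 CPM in wild type and to 1903 and 1192 CPM in stk. MAM1 stood at 0 and 7.36 CPM in stk, IMD1 at 31.2 and 38.9 CPM, and MYB28 at 183 and 71.7 CPM. Wild-type replicate 1 was the highest of the 4 libraries in the sum and in these 3 genes. The embryo and seed filling markers, at 186 and 1.86 CPM in wild type, summed to 102 and 2.48 CPM in stk. They and the summed pathway were both higher in replicate 1 of each genotype. Of the 8 pathway genes named as furthest apart, all but BAT5 (28.8 and 14.2 CPM) were higher in stk replicate 2. CYP83A1 stood at 7.19 and 14.2 CPM there and IPMI2 at 8.93 and 9.50 CPM. Genes with smaller gaps in wild type, such as GSTU20 (314 and 181 CPM) and FMO GS-OX4 (360 and 219 CPM), were higher in stk replicate 1. The part of the seed markers in the result was not tested.

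Genes of the branch that starts from tryptophan were at 10 CPM in both libraries in 4 of 17 cases, beside 42.3% of all protein-coding loci. The list summed to 1507 and 397 CPM, mostly from those 4 genes. CYP79B2 and CYP79B3, which commit tryptophan to the branch, stood at 0 and 0.293 CPM and 0 CPM in both. GSTF9, a glutathione transferase assigned to the pathway, stood at 868 and 15.8 CPM, and GSTF10 was even at 289 and 264 CPM. The other two were UGT74B1, a glucosyltransferase of the core pathway, at 225 and 27.6 CPM and the sulphotransferase gene SOT16 at 112 and 60.8 CPM. Sulphate assimilation, which supplies reduced sulphur and the sulphate donor, reached 10 CPM in both libraries in 10 of 11 cases. Its median log2 ratio was 0.99, with 3 of 11 at least 4-fold higher in replicate 1, beside 3.63% of all loci. This list and that of the tryptophan branch were drawn up after values were seen, and 1 of the 11 genes had 10 CPM in 1 library alone. APS1, the first enzyme, stood at 756 and 185 CPM. AKN2, a kinase that makes the sulphate donor for glucosinolates, stood at 141 and 2.15 CPM, and APR3, which reduces activated sulphate, at 359 and 603 CPM.

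Genes known to be induced by sulphur shortage lay the other way. This list of 9 genes was also drawn up after values were seen. In all, 8 had 10 CPM in either library, all 8 were higher in replicate 2 and 3 were at least 4-fold higher there. Among all loci 7.61% were, and their median log2 ratio of -0.18 also lay towards replicate 2. BGLU28 and ATSDI1, 2 of the 3, had 10 CPM in replicate 2 alone and so entered through the library where they were high. The 6 genes with 10 CPM in both libraries had a median log2 ratio of -1.02, beside -0.10 over all such loci. BGLU28, a glucosidase linked to glucosinolate breakdown, stood at 5.38 and 218 CPM. ATSDI1, a repressor of glucosinolate synthesis, stood at 3.47 and 76.0 CPM, and LSU2 at 45.2 and 96.7 CPM. In stk, BGLU28 stood at 0 and 0.248 CPM and the 9 genes summed to 160 and 72.2 CPM, beside 247 and 788 CPM in wild type. In wild type the library with the higher sum of this list had the lower sum of methionine-derived glucosinolate genes, while in stk replicate 1 had the higher sum of both.

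The loci furthest apart in favour of replicate 2 all read 0 in replicate 1. ADS1, a fatty acid desaturase, stood at 0 and 123 CPM, at least 236-fold higher in replicate 2. ENODL14, an early nodulin-like surface protein, stood at 0 and 100.4 CPM, at least 193-fold higher. GPAT5, an acyltransferase of suberin synthesis, stood at 0 and 75.1 CPM, at least 144-fold higher. ADS1 and GPAT5 stood at 1.07 and 0.992 CPM in stk replicate 2 and at 0 in stk replicate 1, so wild-type replicate 2 was the high library of the 4. Several others act in the cell cycle. The chromosomal HMG-box protein gene 3xHMG-box2 stood at 0 and 91.6 CPM, MAD2, of the spindle checkpoint, at 0 and 80.9 CPM, and the topoisomerase gene TOPII at 0 and 68.0 CPM. The B-type cyclin gene CYC1BAT stood at 0 and 70.3 CPM. The other 5 were AT5G56120, an RNA polymerase II elongation factor (0 and 74.6 CPM), AT5G16250 (0 and 73.2 CPM), AT1G63100, a GRAS family factor (0 and 67.3 CPM), AT5G66230 (0 and 63.2 CPM) and AT5G45950, a GDSL lipase (0 and 63.1 CPM). Of the 24 loci named for being furthest apart, IMD1, AK3, BCAT4, 3xHMG-box2, MAD2 and AT5G56120 overlap an annotated locus on the other strand.

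A list of 35 cell division genes, drawn up after these values were seen, had 31 members with 10 CPM in either library. Of these 23 were at least 4-fold higher in replicate 2 and 0 in replicate 1, beside 7.61% and 3.63% of all loci, and all 31 were higher in replicate 2. The median log2 ratio was -3.95. Of the 31, 22 had 10 CPM in replicate 2 alone and so entered through the library where they were high. The other 9 had a median log2 ratio of -1.45, beside -0.10 over all loci with 10 CPM in both libraries. The list summed to 208 and 1377 CPM in wild type and to 252 and 454 CPM in stk. CDC20.1, an activator of the anaphase-promoting complex, stood at 15.5 and 146 CPM. AUR1, a mitotic kinase, stood at 0 and 60.8 CPM, and SYP111, the syntaxin of the forming cell plate, at 0 and 54.2 CPM. The replication helicase gene MCM4 stood at 22.4 and 63.4 CPM, and CYCA3;4, a cyclin, was even at 20.1 and 22.2 CPM. Wild-type replicate 2 had the highest sum of the 4 libraries. The guard cell markers summed to 50.4 and 226 CPM, mostly from KAT1 (25.01 and 166 CPM) and ICE1 (20.3 and 56.3 CPM). MYB60 of that list lay the other way at 5.04 and 1.66 CPM, and the rest were at or near 0. The part of these markers in the result was not tested.

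Touch and wound genes were at high and even levels. This list of 23 genes that rise within minutes of touch or wounding was likewise drawn up after values were seen, and 12 of its members are in the 28 lists above. At least 10 CPM in both libraries was reached by 22 of them, and 1 of 23 (4.35%) was at least 4-fold apart, ERF5 at 1.74 and 33.6 CPM. The share of all loci was 11.2%, but it fell with level. All members but ERF5 and CBF2 had means above 30 CPM. Of all loci with means of 30 to 100, 100 to 300 and 300 to 1000 CPM, 4.82%, 4.92% and 6.17% were apart, and 9.76% above 1000 CPM. The share of the list was thus near that of loci at most of its levels. The median log2 ratio was 0.09 and the list summed to 11868 and 11018 CPM in wild type and to 13154 and 12584 CPM in stk. SZF1, a zinc finger protein, stood at 1164 and 1089 CPM, and HSPRO2 at 1325 and 987 CPM. TCH2, a calmodulin-like calcium sensor, stood at 598 and 629.7 CPM, and MPK3, a stress kinase, at 379 and 468 CPM. Wild-type replicate 2 had the lowest sum of the 4 libraries and stk replicate 1 the highest. With TMM or DESeq2 scaling the median log2 ratio of the list was 0.21 or 0.23.

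**Figure D5:**
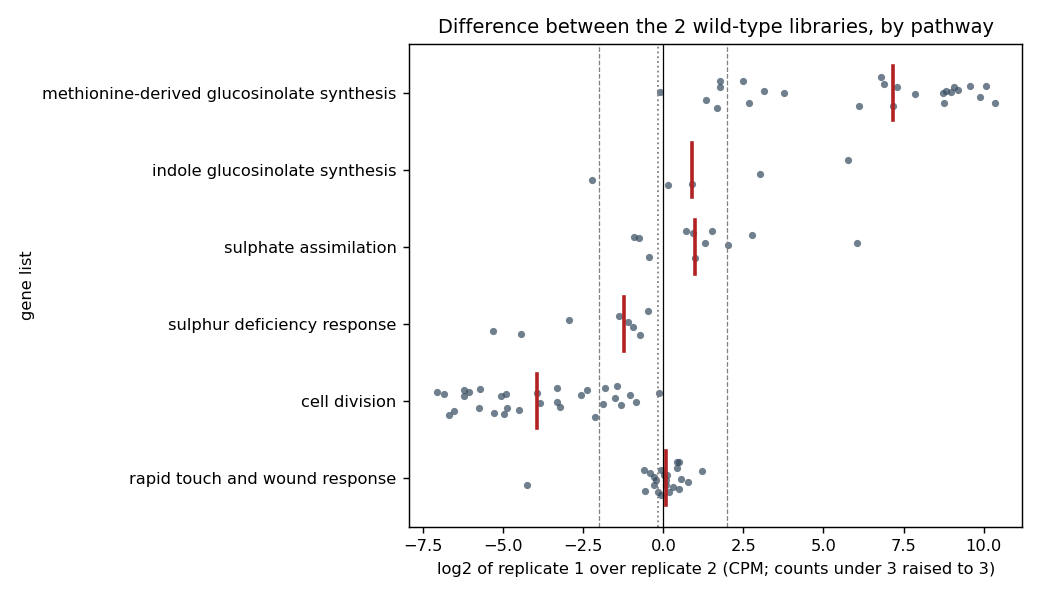
Log2 ratio of replicate 1 over replicate 2 for members with 10 CPM in either library in 6 lists drawn up after values were seen, one point per gene, with the median of each list as a bar. Dashed lines mark 4-fold and the dotted line the median of all 14581 loci (-0.18). The glucosinolate list has its median at 7.18, cell division at -3.95 and touch and wound response at 0.09.

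Loci apart in wild type often lay in the same order in stk, though the labels do not say that a replicate number marks a shared day or batch. Replicate 1 was also the shallower library of each genotype, with 5757066 against 10229588 counts in wild type and 4033589 against 12099218 in stk. The part of depth in the shared order was not tested. Of the 530 loci higher in wild-type replicate 1, 355 had 10 CPM in a stk library, and 282 of these (79.4%) were higher in stk replicate 1, beside 42.5% of all 13432 such loci. At least 4-fold higher there were 80, and 10 were at least 4-fold higher in stk replicate 2, beside 3.81% and 8.44% of all loci with 10 CPM in a stk library. Of the 1110 loci higher in wild-type replicate 2, 797 had 10 CPM in a stk library and 547 (68.6%) were higher in stk replicate 2, beside 57.5% of all. At least 4-fold higher there were 185, and 11 were at least 4-fold higher in stk replicate 1. FT, PP2-A1, SUC2 and SWEET11 were among those higher in replicate 1 of both genotypes. SUC2 stood at 599 and 279.5 CPM in stk, PP2-A1, a phloem lectin, at 1136 and 271 CPM in wild type and 985 and 466 CPM in stk, and SWEET11 at 224 and 58.9 CPM in stk. The 10 phloem markers summed to 2240 and 1065 CPM in the stk libraries.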

How the data were processed

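The authors deposited raw read counts per locus, one column per library, for 37051 loci. Per the labels' protocols, mRNA was captured with the Dynabeads mRNA DIRECT Micro Kit and libraries were made with TruSeq RNA v2, which does not mark strand. The submitters' processing notes list, with no roles, featureCounts 1.6.3, STAR 2.7.0, Trimmomatic 0.38, R (given as 1.30.1) and DESeq2 1.38.3. What build and annotation were used, and how strand and multi-mapped reads were handled, is not given in the sources used here. Symbols, products, biotypes, overlaps and exonic lengths were taken from RefSeq TAIR10.1, which held all 37051 loci, and no coordinates are printed. Of the 909 loci in the 28 lists, 175 overlap an annotated locus on the other strand (IAA9, GTR1, GTR2, NRAMP1, WRKY40 and WRKY33 among those named). So does CAB1 outside these lists. Reads of the stretch shared by such a pair cannot be told apart, and the lengths of these stretches were not measured.

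CPM values were computed from column totals (5757066 and 10229588 counts in wild type) with Python 3.11.15, numpy 2.4.6, pandas 2.3.3 and scipy 1.17.1. The 95% interval of a ratio is the Clopper-Pearson interval of one library's share of the 2 counts, and the limit of a count of 0 is 3 counts. TMM factors came from edgeR 4.0.16 and size factors from DESeq2 1.42.0 in R 4.3.3, as alternatives. Others were levels of 5 and 20 CPM, folds of 2 and 8, other filters, each library left out, and replicate 2 thinned to the total of replicate 1. The 4-fold rule and the interval were tested on simulated data. No test between libraries was made, since the wild-type libraries are 2 samples of one group.

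The 28 lists (937 entries, 14 with no match in the reference), the 11 marker lists and the members were chosen with earlier results of these data known, and 6 further lists (125 loci) after the values were seen. Named loci are the ovule identity markers, the 25 with the highest mean CPM, up to 4 members per list with the highest mean CPM at 10 CPM in both libraries, all members of a list of at most 12, the 12 furthest apart in each direction with the interval wholly past 4-fold, and the 12 closest at 100 CPM or more. One locus named by this rule is not reported here. Members of the marker lists and of the 6 further lists named in the text were chosen after their values were seen.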

Additional observations from a re-analysis of the deposited data

How the results depend on the processing

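The count of loci with 10 CPM in both wild-type libraries and the counts for each list class stayed within 1.5 times the reported value under every alternative run. Loci with 10 CPM in both numbered 11715, and 12669 to 13627 when one library was left out. Transporter members numbered 90 (100 to 108 with one library left out), wall members 95 (103 to 116), hormone members 160 (176 in either case) and regulators 94 (101 to 110). The count of loci at least 4-fold apart, 1640, moved with its definition: 3575 with no filter beyond a count above 0, 230 with a mean of at least 50 CPM, 4718 at a fold of 2 and 829 at a fold of 8. It was 1588 with TMM and 1596 with DESeq2 size factors, and 37.7% and 38.4% of those were higher in replicate 1, beside 32.3% with column totals. The share of the 25 leading loci was 3.46% and 6.27% in the single libraries. The median absolute log2 ratio was 0.48 with either scaling and 0.46 at a mean of at least 50 CPM.

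No paired analysis was possible because the results come from no test and the wild-type group stands alone. Across 10079 loci with 10 CPM in all 4 libraries, the log2 ratio of replicate 1 over replicate 2 in wild type and in stk had a Pearson's r of 0.320, a hint from the data and not from the design. Depth limits single ratios at low levels, where 10 CPM is 58 counts in replicate 1. A difference between 2 libraries cannot be split into biological and technical parts here.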
